A study of Mus musculus with 6 samples.

Results

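The tachykinin and opioid peptide genes of the mouse hypothalamus, with the genes of their receptors, are described here in 6 arrays. The members were listed by gene symbol, and each was taken as the row of the deposited table with that symbol alone, the brightest where a gene had several. All 10 listed genes were found, each with 1 row, among 21507 genes. They are 5 peptide precursor genes, *Tac1*, *Tac2*, *Penk*, *Pdyn*, and *Pnoc*, and 5 receptor genes, *Tacr1*, *Tacr3*, *Oprm1*, *Oprd1*, and *Oprk1*.

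Whole-transcript Affymetrix GeneChips were hybridized with hypothalamic RNA from male mice, 3 labeled ΔLepR and 3 labeled Slug fl/fl. The ΔLepR mice carried both floxed *Slug* alleles and the leptin receptor Cre on both chromosomes (Slugfl/fl;LepRCre/Cre), and the Slug fl/fl controls carried the same floxed alleles and no Cre. The mice were 8 weeks old by the labels, while the study's methods give an older age, and were on a chow diet. The labels name a CreERT2 line with no inducing agent, where the methods name a Cre knockin at *LepRb* (C57BL/6 background) meant to act in cells with the long form of the receptor, in the brain and outside it. No array with Cre alone was analysed here, so the deletion and the knockin cannot be told apart, and the sources do not say how many mice an array stands for.

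*Snai2*, the gene of Slug, averaged 10.17 ± 0.44 in arrays labeled ΔLepR and 4.08 ± 0.25 in arrays labeled Slug fl/fl (log2, SD, n = 3 each). It was higher where the label names a deletion, and which part of its transcript the row measures was not analysed here, so each direction below is given as the arrays are labeled. *Lepr*, the leptin receptor gene at which Cre was inserted, was 4.55, 4.16, and 4.42 in arrays labeled ΔLepR, and 4.04, 3.72, and 3.96 in arrays labeled Slug fl/fl, and its groups did not overlap (log2 difference 0.47, SE 0.13, adjusted p = 0.74, limma). These rows alone do not settle the labels. *Pmch*, the gene of melanin-concentrating hormone, and *Trh*, the gene of thyrotropin-releasing hormone, are hypothalamic markers. *Pmch* was 9.51 to 9.77 in arrays labeled ΔLepR and 9.29 to 9.76 in arrays labeled Slug fl/fl. *Trh* was 7.85 to 8.09 and 7.67 to 8.12, in the same order. The other markers listed for the same regions went in both directions. Log2 differences were below 0 in *Lhx9* (-0.48), *Avp* (-0.46), *Crh* (-0.37), *Sim1* (-0.16), and *Hcrt* (-0.02), and above 0 in *Oxt* (0.23) and *Otp* (0.19). Of these, *Lhx9* and *Crh* lay below the median of all genes for both labels. The mean of 4 thalamic markers differed among arrays of one label, from 5.48 to 5.81 in arrays labeled ΔLepR and from 5.29 to 6.16 in arrays labeled Slug fl/fl. The 5 measured cortical markers all lay below 4.18, the median over every gene, whichever the label. Fewer cells of a type and less RNA per cell cannot be told apart in bulk tissue.

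Tachykinins are short peptides with a shared carboxyl end that excite neurons through G protein-coupled NK receptors. *Tac1* encodes substance P and neurokinin A, and *Tac2* encodes neurokinin B, which acts mainly through the NK3 receptor in the arcuate neurons that also make kisspeptin and dynorphin and pace the release of gonadotropins. Opioid peptides are cut from larger precursors and mostly inhibit neurons through the mu, delta, and kappa receptors, which lower cyclic AMP and open potassium channels. Both families are known in the hypothalamus for roles in reproduction, stress, pain, and feeding.

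Slug is a repressor that binds the E2 box, CAGGTG or CACCTG, a form of the E box CANNTG. RefSeq promoter windows of 300 bases, most of them before a start site, were found for 7 of the 10 members, 10 windows in all, of which a pair at *Oprm1* overlap (GRCm38.p6). On either strand, 1 of these 10 windows held an E2 box, that of *Oprd1*, against 20.2% of all 32851 windows. An E box was held by 5, against 72.3%. These 5 were the windows of *Tac1*, *Tac2*, *Tacr1*, *Tacr3*, and *Oprd1*, while *Pdyn* and *Oprm1* had more than 1 window each and no E box. The windows are shown for *Tac1*, the member with the largest difference between the groups, for *Tacr1*, the receptor of its peptide substance P, and for *Oprd1*, with each E box in capitals. The E2 box is the first capital run of *Oprd1*, which starts 207 bases before the start site. These matches describe the letters only. The *Tacr1* window begins after base 82402003, where that gene starts in RefSeq, and so lies within the gene.
Tac1 (chr6:7554811-7555110, + strand): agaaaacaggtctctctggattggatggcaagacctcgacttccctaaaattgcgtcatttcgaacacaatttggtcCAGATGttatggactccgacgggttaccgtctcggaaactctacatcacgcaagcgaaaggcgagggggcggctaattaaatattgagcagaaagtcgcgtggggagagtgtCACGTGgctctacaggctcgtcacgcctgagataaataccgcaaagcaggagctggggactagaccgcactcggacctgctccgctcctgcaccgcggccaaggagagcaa
Tacr1 (chr6:82402225-82402524, + strand): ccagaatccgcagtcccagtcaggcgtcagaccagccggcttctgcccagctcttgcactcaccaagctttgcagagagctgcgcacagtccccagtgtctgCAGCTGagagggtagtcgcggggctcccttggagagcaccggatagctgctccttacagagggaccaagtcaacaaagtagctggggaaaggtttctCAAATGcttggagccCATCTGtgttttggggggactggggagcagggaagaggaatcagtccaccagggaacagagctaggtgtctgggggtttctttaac
Oprd1 (chr4:132144437-132144736, - strand): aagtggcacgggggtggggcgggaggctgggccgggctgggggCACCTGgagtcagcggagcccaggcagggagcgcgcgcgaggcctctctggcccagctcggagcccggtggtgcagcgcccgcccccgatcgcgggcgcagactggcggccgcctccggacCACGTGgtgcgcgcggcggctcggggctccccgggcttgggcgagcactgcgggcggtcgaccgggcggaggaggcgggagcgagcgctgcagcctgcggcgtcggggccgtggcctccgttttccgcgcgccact

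Of the 10 members, *Tac1* was higher in arrays labeled ΔLepR and none was lower, by the study's limits, which ask for a change of more than 25% in either direction and an unadjusted p below 0.05 (limma). Over all 21507 genes, 1.44% were higher (309 genes) and 0.577% were lower (124 genes) by the same limits. Relative to the neuron markers 1136 were higher and 47 lower. That scaling, chosen after seeing the data, itself moved the median of all genes by 0.10. None of the 10 passed a Benjamini-Hochberg adjusted p of 0.05 over all genes, as 3 genes or 0.0139% did, and *Tac1* alone had an unadjusted p under 0.05 in limma and in the methods' t-test. In 1 member, *Tac1*, the lowest array labeled ΔLepR exceeded the highest labeled Slug fl/fl, against 5.91% of all genes. In 1 member, *Tacr1*, all 3 arrays labeled ΔLepR were below all 3 of the other label, against 5.56% of all genes. The median log2 fold change of the 10 members was 0.08, and that of all genes was 0.00.

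**Figure D1:**
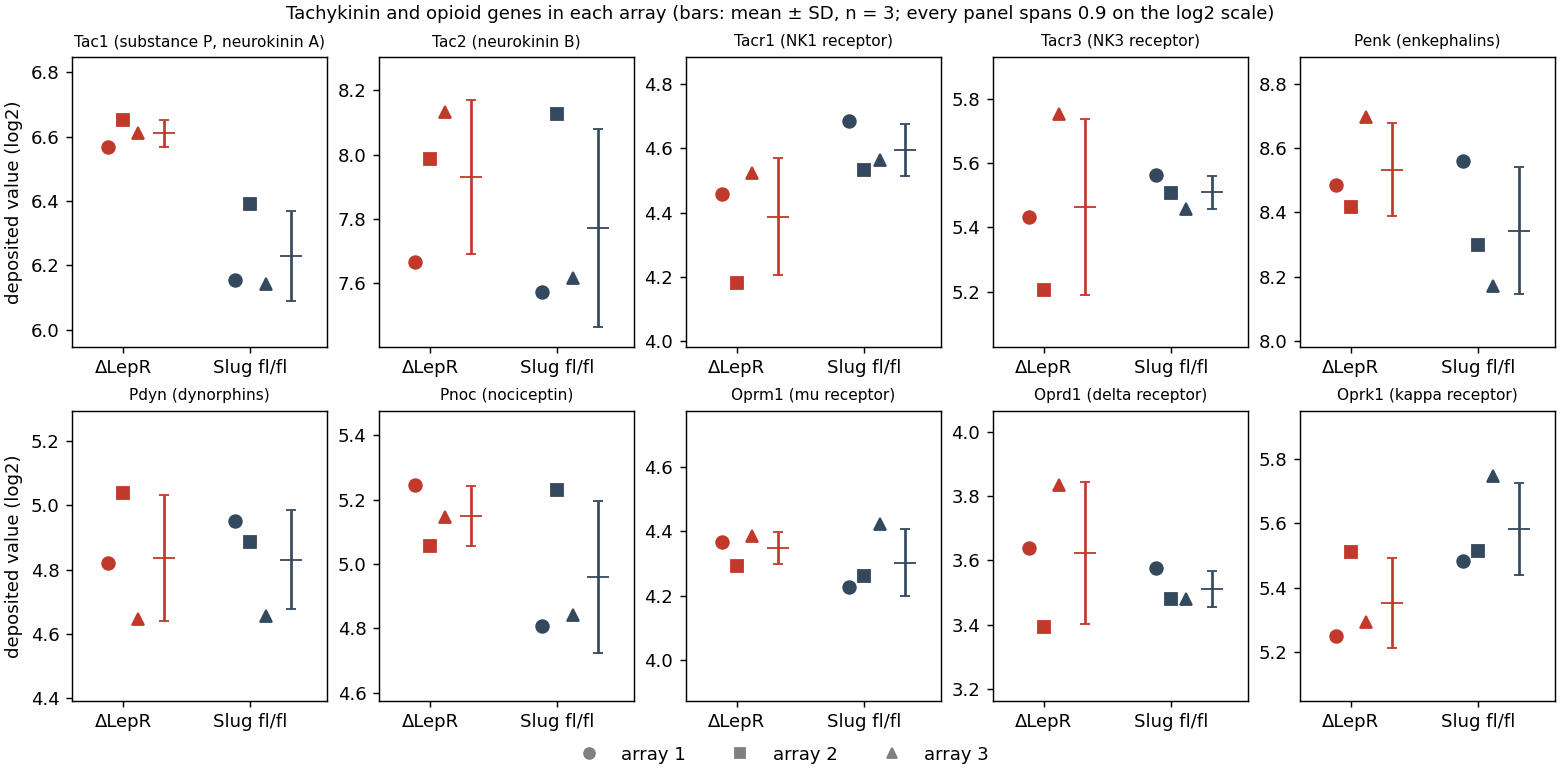
Deposited log2 values (vertical axis) of the 10 members in each array labeled ΔLepR (red) and Slug fl/fl (dark blue), with the mean and SD of 3 arrays at the right of each group. *Tac1* lies between 6.57 and 6.65 in the arrays labeled ΔLepR, above the highest value of 6.39 in those labeled Slug fl/fl, while in 8 members the groups overlap and in *Tacr1* they lie 0.01 apart.

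*Tac1* was 6.57, 6.65, and 6.61 in arrays labeled ΔLepR 1 to 3, and 6.16, 6.39, and 6.14 in arrays labeled Slug fl/fl 1 to 3 (log2). The arrays labeled ΔLepR lay close together and did not overlap the others, of which array 2 was the highest. The means were 6.61 ± 0.04 and 6.23 ± 0.14 (SD, n = 3 each), 1.30-fold higher in arrays labeled ΔLepR. The log2 fold change was 0.38 (SE 0.10, 95% interval 0.15 to 0.61, limma, adjusted p = 0.74). The groups differed by more than the arrays of either label did among themselves. An exact permutation test, two-sided, gave p = 0.10, and no smaller p is possible with this number of arrays. It lay between 0.34 and 0.46 as each array was left out, and was past the study's limits each time.

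*Tac2*, the other tachykinin precursor, was 7.67, 7.99, and 8.13 in arrays labeled ΔLepR, and 7.57, 8.13, and 7.62 in arrays labeled Slug fl/fl. The groups overlapped, with 1 array of each label at the top. The log2 fold change was 0.16 (95% interval -0.22 to 0.53). Its spread within groups, a pooled SD of 0.28, was larger than that of 93.2% of all genes, so a difference of the size of *Tac1* was within its interval. Without Slug fl/fl array 2 the log2 fold change of *Tac2* was 0.33, and without ΔLepR array 3 it was 0.05.

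*Tacr1* encodes the NK1 receptor, which substance P activates. It was 4.46, 4.18, and 4.52 in arrays labeled ΔLepR, and 4.69, 4.53, and 4.57 in arrays labeled Slug fl/fl. The groups did not overlap, but ΔLepR array 3 and Slug fl/fl array 2 were 0.01 apart, and array 2 of ΔLepR was the lowest. The log2 fold change was -0.21 (SE 0.11, 95% interval -0.46 to 0.05, adjusted p = 0.86, limma), which did not pass, and it was -0.10 without ΔLepR array 2. *Tacr3*, the gene of the NK3 receptor for neurokinin B, was 5.43, 5.21, and 5.75 in arrays labeled ΔLepR, and 5.56, 5.51, and 5.46 in arrays labeled Slug fl/fl. The 3 arrays labeled Slug fl/fl lay inside the range of those labeled ΔLepR, with ΔLepR array 2 again the lowest, and the log2 fold change of -0.05 (95% interval -0.35 to 0.26) turned to 0.08 without that array.

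*Penk*, the precursor of the enkephalins that act on delta and mu receptors, was 8.48, 8.42, and 8.69 in arrays labeled ΔLepR, and 8.56, 8.30, and 8.17 in arrays labeled Slug fl/fl. The groups overlapped through Slug fl/fl array 1, without which the log2 fold change of 0.19 (95% interval -0.09 to 0.47) was 0.30. *Pdyn*, the precursor of the dynorphins that act on the kappa receptor, was 4.82, 5.04, and 4.65 in arrays labeled ΔLepR, and 4.95, 4.89, and 4.66 in arrays labeled Slug fl/fl. The groups covered nearly the same range, and the log2 fold change was 0.00 (95% interval -0.28 to 0.29). *Pnoc*, the precursor of nociceptin, was 5.24, 5.06, and 5.15 in arrays labeled ΔLepR, and 4.81, 5.23, and 4.84 in arrays labeled Slug fl/fl. Here Slug fl/fl array 2 stood with the arrays labeled ΔLepR and the other 2 stood below them. The log2 fold change was 0.19 (95% interval -0.10 to 0.48), and without Slug fl/fl array 2 it was 0.33, past the study's limits (unadjusted p = 0.018, adjusted p = 0.86, limma).

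Slug fl/fl array 2 held the highest value of its label in *Tac1*, *Tac2*, and *Pnoc*. Each of these 3 precursor genes therefore had its largest log2 fold change, among the values with 1 array left out, without that array, 0.46, 0.33, and 0.33. In *Penk* and *Pdyn*, Slug fl/fl array 2 was between the other arrays of its label.

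The mu, delta, and kappa receptor genes showed no difference past the limits. *Oprm1*, the gene of the mu receptor, was 4.37, 4.29, and 4.39 in arrays labeled ΔLepR, and 4.23, 4.26, and 4.42 in arrays labeled Slug fl/fl. It varied the least of the 10, over 0.20 in all 6 arrays, and its log2 fold change of 0.05 had the narrowest interval (-0.17 to 0.26). *Oprd1*, the gene of the delta receptor, was 3.64, 3.39, and 3.83 in arrays labeled ΔLepR, and 3.58, 3.48, and 3.48 in arrays labeled Slug fl/fl, below the gene-wide median for both labels. The arrays labeled ΔLepR reached both above and below the others, with a log2 fold change of 0.11 (95% interval -0.16 to 0.38) that was 0.00 without ΔLepR array 3. *Oprk1*, the gene of the kappa receptor, was 5.25, 5.51, and 5.29 in arrays labeled ΔLepR, and 5.48, 5.51, and 5.75 in arrays labeled Slug fl/fl. ΔLepR array 2 stood within the other group, and the log2 fold change was -0.23 (SE 0.11, 95% interval -0.49 to 0.03, adjusted p = 0.85, limma).

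**Figure D2:**
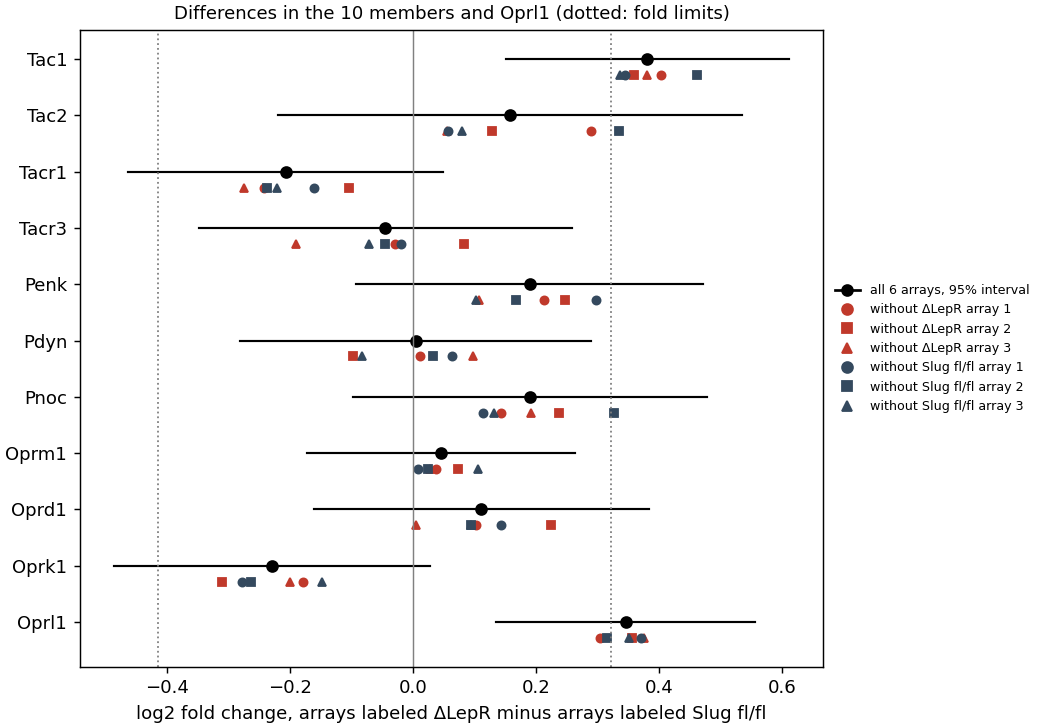
Log2 fold change (horizontal axis, arrays labeled ΔLepR minus arrays labeled Slug fl/fl) of the 10 members and *Oprl1*, with the 95% interval of limma in black and, under it, the value without each array in turn. Dotted lines mark a change of 25% in either direction, and only the intervals of *Tac1* (0.15 to 0.61) and *Oprl1* (0.13 to 0.56) lie wholly on one side of 0.

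Among 4 further genes of the 2 families, 1 was higher and none was lower. *Oprl1*, the gene of the nociceptin receptor, was 6.43, 6.33, and 6.29 in arrays labeled ΔLepR, and 6.05, 5.94, and 6.01 in arrays labeled Slug fl/fl. The groups did not overlap, and its mean was 1.27-fold higher, a log2 difference of 0.35 (SE 0.09, 95% interval 0.13 to 0.56, adjusted p = 0.74, limma). It no longer passed without ΔLepR array 1 (0.30) or Slug fl/fl array 2 (0.32). *Tac4*, a further tachykinin precursor, differed by 0.06, *Tacr2*, the NK2 receptor gene, by -0.04, and *Pomc*, the precursor of beta-endorphin and the melanocortins, by 0.14, and these 3 lay below the gene-wide median for both labels.

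None of 7 measured genes of the kisspeptin, neurokinin B, and dynorphin neurons and the reproductive axis passed. The smallest p was that of *Pgr*, the progesterone receptor gene, which was 4.75, 4.64, and 4.67 in arrays labeled ΔLepR, and 4.88, 4.92, and 5.13 in arrays labeled Slug fl/fl. Its groups did not overlap, and its log2 difference of -0.29 (SE 0.10), with an adjusted p of 0.84 by limma, did not reach the limit of 25%. *Kiss1*, the gene of kisspeptin, differed by 0.09 and *Esr1*, the estrogen receptor alpha gene, by 0.12.

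None of 12 genes of prohormone processing and dense-core vesicles passed. Of these, 5 had a log2 fold change above 0, against 50.7% of all genes. All arrays labeled ΔLepR were below the others in 3 of the 12, against 5.56% of all genes, and above in 1, *Pcsk1n*, against 5.91%. *Pcsk1n*, which encodes proSAAS, an inhibitor of a prohormone convertase, was 7.50, 7.71, and 7.57 in arrays labeled ΔLepR, and 7.26, 7.17, and 7.41 in arrays labeled Slug fl/fl. The groups did not overlap, and *Pcsk1n* differed by 0.31 on the log2 scale (SE 0.11), with an adjusted p of 0.84 by limma, just under the limit of 25%, which it passed without ΔLepR array 1 (0.36), ΔLepR array 3 (0.33), or Slug fl/fl array 3 (0.38). Among 11 peptidases that can cleave these peptides none passed, and the smallest p was that of *Ece2*, an endothelin-converting enzyme, with a log2 fold change of 0.19. *Mme*, the gene of neprilysin, which degrades enkephalins and substance P, differed by -0.11.

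Of 24 genes of G proteins, channels, and receptor regulators, 1 was lower and none was higher. *Kcnj9* encodes GIRK3, a subunit of the potassium channels that opioid receptors open. It was 5.64, 5.32, and 5.37 in arrays labeled ΔLepR, and 5.71, 5.85, and 6.17 in arrays labeled Slug fl/fl. The groups did not overlap but ΔLepR array 1 lay close to the others, and the mean was 27.6% lower, by -0.47 on the log2 scale (SE 0.14), with an adjusted p of 0.78 by limma. It no longer passed without ΔLepR array 2 (-0.41) or Slug fl/fl array 3 (-0.33). The other measured subunits of these channels, *Kcnj3*, *Kcnj5*, and *Kcnj6*, differed by 0.02, 0.20, and -0.07, and none passed. *Kcnj5* lay below the gene-wide median for both labels. *Arrb1*, the beta-arrestin 1 gene, differed by 0.19.

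*Tac1* had the smallest p of the 10 members, rank 120 among 21507 genes. Among 9978 protein-coding genes above the median of all genes, the 5 whose values were nearest to *Tac1* over the 6 arrays, each centered on its own mean, were *Ass1*, *Copa*, *Rbm15*, *Slc37a4*, and *Hdc*. Their root mean square differences from *Tac1* were 0.03, 0.04, 0.05, 0.05, and 0.06 on the log2 scale, against a median of 0.23. The 6 arrays include both labels, so each of the 5 was also higher in arrays labeled ΔLepR, by 1.26-fold to 1.36-fold. Likeness in the order of arrays within a label follows largely from the same choice. *Hdc*, which encodes the enzyme of histamine synthesis and marks the tuberomammillary nucleus, was 5.37, 5.52, and 5.36 in arrays labeled ΔLepR, and 4.82, 5.20, and 4.91 in arrays labeled Slug fl/fl, with array 2 the highest of each label as in *Tac1*.

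**Figure D3:**
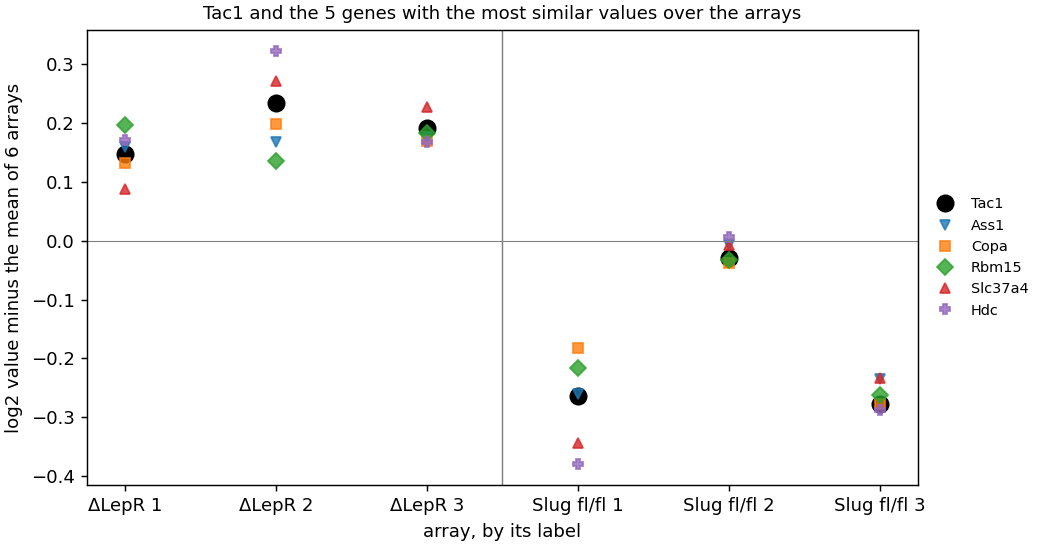
Values of *Tac1* (black) and of the 5 genes most like it in each array (horizontal axis), as log2 minus the gene's mean of 6 arrays (vertical axis). All 6 genes are above 0 in the 3 arrays labeled ΔLepR and at their highest for the other label in Slug fl/fl array 2. The 5 were picked for nearness to *Tac1* over these same arrays, so the shared pattern follows largely from the choice.

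Of 8 measured markers of the posterior hypothalamus and tuberomammillary nucleus, *Hdc* alone, which was also among the genes nearest to *Tac1*, passed the limits. The log2 fold changes of the other 7 lay between -0.08 (*Foxb1*) and 0.20 (*Foxa1*), and 4 of the 8 were below the gene-wide median for both labels. In all, 7 of the 8, *Hdc* among them, were above 0, against 50.7% of all genes. The mean of the 8, *Hdc* included, was 4.22 to 4.29 in arrays labeled ΔLepR and 4.11 to 4.17 in arrays labeled Slug fl/fl. *Hdc* lay near *Tac1* over both labels, so this count and mean are not independent of *Tac1*. The list without *Hdc* was not analysed here. The part of posterior hypothalamic cells in the *Tac1* difference was not tested. The 7 measured striatal markers, from a region rich in *Tac1*, *Penk*, and *Pdyn*, averaged 4.95 to 5.16 in arrays labeled ΔLepR and 4.94 to 5.08 in arrays labeled Slug fl/fl, and none passed. The 6 markers of the medial habenula, which expresses *Tac1* and *Oprm1*, averaged 3.39 to 3.53 in arrays labeled ΔLepR and 3.51 to 3.63 in arrays labeled Slug fl/fl, and none passed. The 6 suprachiasmatic markers averaged 4.49 to 4.57 in arrays labeled ΔLepR and 4.64 to 4.79 in arrays labeled Slug fl/fl, with none past the limits, and their part in any member's difference was not tested. The 6 measured arcuate markers averaged 4.44 to 4.59 in arrays labeled ΔLepR and 4.36 to 4.46 in arrays labeled Slug fl/fl, and none passed. Log2 fold changes were above 0 in 6 of the 7 striatal and 5 of the 6 arcuate markers. They were above 0 in 1 of the 6 suprachiasmatic and 1 of the 6 habenular markers. None of the 8 markers of neurons in general had a log2 fold change above 0, against 50.7% of all genes. Of these 8, *Gad1*, which encodes a glutamate decarboxylase, was lower (-0.45). The other 7 lay between -0.11 (*Snap25*) and -0.003 (*Tubb3*). The mean of the 8 was 8.42 to 8.59 in arrays labeled ΔLepR and 8.57 to 8.68 in arrays labeled Slug fl/fl. The groups overlapped, with ΔLepR array 1 the lowest. The other marker genes past the limits were *Neurod6*, higher by 0.34, and *Emx1* (-0.52), *Lhx9* (-0.48), and *Avp* (-0.46), lower. Their adjusted p by limma was 0.84, 0.55, 0.81, and 0.77, in that order. *Neurod6*, *Emx1*, and *Lhx9* lay below the gene-wide median for both labels.

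**Figure D4:**
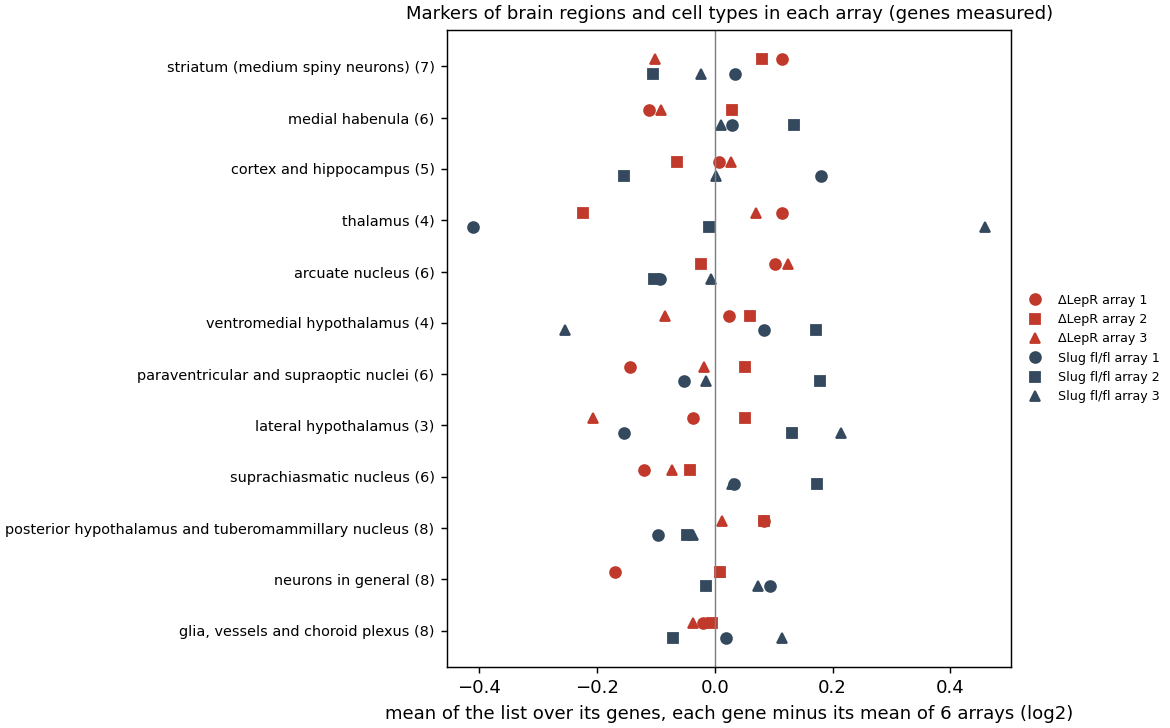
Mean of each marker list in each array, with every gene centered on its own mean of 6 arrays (horizontal axis, log2), for arrays labeled ΔLepR (red) and Slug fl/fl (dark blue). The groups lie apart for the posterior hypothalamus list (ΔLepR higher), which includes *Hdc*, and for the suprachiasmatic nucleus (ΔLepR lower). The thalamic list spreads widest, from 5.29 to 6.16 as a mean level in the arrays labeled Slug fl/fl.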

How the data were processed

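The authors deposited log2 values of the 6 arrays in 1 table, by probe set. The log base is inferred from the range of 0.90 to 12.43. The submitters' processing notes name MAS5 with no role. Their background correction, summarisation, normalization, and filters: not given in the sources used here. Array medians lay between 4.04 and 4.07, and no scanner files or batches were analysed here. Precision is limited by the number of arrays.

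The table held 24663 rows, of which 21925 had 1 symbol in the platform annotation, and 21832 of these were matched by Entrez identifier to RefSeq symbols. The brightest row of each gene was kept, which left 21507 genes. Groups were compared with lmFit and eBayes (limma 3.58.1, R 4.3.3) without covariates, and p-values were adjusted over all genes by Benjamini-Hochberg. Following the study, a gene passed with a fold over 1.25 or a ratio below 0.75 and an unadjusted p below 0.05. Where nothing says that arrays are separate mice, p-values measure only the spread between arrays. The fit was tested on simulated data.

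All members were named, with listed genes past the limits or with the smallest p of their list, and 5 genes by likeness. Some other listed genes, among them *Kiss1*, *Mme*, and *Arrb1*, were also named, by no rule on p. The members and lists were chosen with earlier results of these data known. *Prlr*, *Pcsk2*, *Lnpep*, *Grk2*, *Gprasp1*, and 8 listed markers were not analysed here. Alternatives were each array left out, array weights, the methods' 2-tailed t-test, quantile or median normalization, a robust prior with a trend on intensity, rows averaged per gene, no dim genes, a replicate block, and, chosen after seeing the data, scaling to neuron markers.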

Additional observations from a re-analysis of the deposited data

How the results depend on the processing

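Over 149 values of the 10 members under the alternatives, 142 kept their direction and side of the limits, and *Tac1* stayed past the limits in all 15 settings (0.34 to 0.48, adjusted p from 0.40 to 0.98). *Tacr3* was 0.056 relative to the neuron markers, and -0.19 to 0.083 as arrays were left out. *Pdyn* was -0.00071 with quantile normalization, -0.017 with array weights, and -0.10 to 0.10 as arrays were left out. The number of members higher was 1 or 2 as arrays were left out, the second being *Pnoc* without Slug fl/fl array 2, and 0 members were lower in every setting. Over all genes, 309 were higher and 124 lower, with 3 past an adjusted p of 0.05 (limma) and 1259 at an unadjusted p under 0.05. The t-test gave 156, 62, and 0, leaving out dim genes (*Oprd1* with them) 150, 63, and 5, and scaling to the neuron markers, which moved the median of all genes by 0.10, gave 1136, 47, and 8. *Tac1* was 0.48 on that scale, *Tacr1* -0.11, and *Oprk1* -0.13, before that shift is allowed for. The trend gave 6 past the adjusted p. As arrays were left out, 368 to 463 genes were higher, 153 to 189 lower, and 1 to 3 past the adjusted p. Same-numbered arrays did not deviate together over genes (r from -0.06 to -0.00), and the main fit did not pair them. A weak shared factor, or one in few genes, was not tested. The fit with the replicate block gave 1 gene past the adjusted p, 0.38 for *Tac1*, and no changed call among the members. No array labeled ΔLepR correlated best with the Slug fl/fl array of its own number. *Kcnj9*, *Lhx9*, and *Neurod6* did not pass with the t-test, and *Kcnj9* (-0.37), *Lhx9* (-0.38), *Gad1* (-0.35), and *Avp* (-0.36) did not relative to the neuron markers. Among markers, *Gad1* did not pass without ΔLepR array 1 (-0.32) or Slug fl/fl array 3 (-0.36), *Avp* without ΔLepR array 1 (-0.38) or Slug fl/fl array 2 (-0.34), *Lhx9* without ΔLepR array 3 (-0.40) or Slug fl/fl array 3 (-0.32), and *Neurod6* without ΔLepR array 1 (0.36) or 3 (0.22) or Slug fl/fl array 2 (0.30) or 3 (0.27). No cause was tested.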
